A study of Mus musculus with 6 samples.

Results

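The S100a genes encode small calcium-binding proteins, and 10 of them (S100a1, S100a3, S100a4, S100a6, S100a8, S100a9, S100a10, S100a11, S100a14 and S100a16) were taken by gene symbol from the 24453 symbols of the count files. Newborn mouse pups (postnatal day 0) gave the back skin, from which interfollicular epidermis was sorted by EpCAM, Sca1 and a high level of α6-integrin. There were 3 libraries from Eed conditional knockout mice (Eed cKO, genotype Eed-/-) and 3 from control mice (genotype Control). The protein made from Eed belongs to the core of Polycomb repressive complex 2, and the libraries let S100a transcripts be compared with and without it. No source used here gives the Cre driver, the strain or the exons removed. Whether each library is a different animal is not stated, so p-values describe library-to-library spread, which may be technical.

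S100 proteins carry a pair of EF-hand calcium-binding loops, usually work as dimers, and change shape on binding calcium so that they can grip target proteins such as annexins. Most of their genes sit side by side with the genes for filaggrin-like and cornified envelope proteins in the epidermal differentiation complex, and several are known for their use in epidermis. S100A8 and S100A9 form calprotectin, an alarm and antimicrobial protein that neutrophils store and that wounded or inflamed keratinocytes induce. Polycomb repressive complex 2 methylates histone H3 at lysine 27 and is known to favour CpG-rich promoters.

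Libraries held 20998149 to 27447679 counts in Eed cKO and 25481306 to 29998531 in control, and the 10 members took 0.0731% to 0.110% of them in Eed cKO and 0.0534% to 0.0802% in control. With edgeR's quasi-likelihood method, 14700 genes were tested. At a Benjamini-Hochberg adjusted p under 0.05, 499 were higher (3.39%) and 120 lower (0.816%) in Eed cKO, 4.21% in all. Eed itself was at 37.0, 33.7 and 29.2 CPM (normalised counts scaled to a common library size) in Eed cKO libraries 1, 2 and 3 and at 45.1, 41.1 and 53.1 CPM in control libraries 1, 2 and 3 (edgeR adjusted p 0.252), and a whole-gene count checks a partial deletion little. Basal keratinocyte markers summed to 39320 to 48590 CPM in Eed cKO and 45680 to 50740 CPM in control. The ribosomal RNA gene Rn45s took 6.78% to 7.26% of counts in Eed cKO and 2.18% to 5.24% in control.

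All 10 members lie on chromosome 3 of GRCm38, from S100a1 (90511034 to 90514392, minus strand) to S100a10 (93555080 to 93564643, plus strand). S100a6 spans 90612882 to 90624181 on the plus strand. The interval also holds loricrin, small proline-rich, late cornified envelope and fused-type S100 genes, between S100a9 and S100a11. RefSeq promoter windows on GRCm38.p6 matched 8 of the 10 members, in 12 windows. The 250 bases before the annotated start are shown for S100a6, the single member that rose, for S100a11, the member with the highest level, and for S100a9, which was nearly silent. Each runs 5′ to 3′ on the gene's strand, and capitals mark TGANTCA, the AP-1 motif.
S100a6, chr3:90612644-90612893, plus strand: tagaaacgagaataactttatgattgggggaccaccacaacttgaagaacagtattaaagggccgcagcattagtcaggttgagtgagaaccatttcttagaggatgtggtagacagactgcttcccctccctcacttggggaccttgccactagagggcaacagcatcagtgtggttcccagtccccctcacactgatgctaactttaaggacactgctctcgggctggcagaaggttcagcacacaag
S100a11, chr3:93520246-93520495, plus strand: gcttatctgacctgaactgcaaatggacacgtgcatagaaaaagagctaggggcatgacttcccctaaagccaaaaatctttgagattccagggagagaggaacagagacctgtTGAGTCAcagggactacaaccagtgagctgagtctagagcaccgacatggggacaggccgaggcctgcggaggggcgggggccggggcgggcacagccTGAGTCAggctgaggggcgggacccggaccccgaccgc
S100a9, chr3:90695722-90695971, minus strand: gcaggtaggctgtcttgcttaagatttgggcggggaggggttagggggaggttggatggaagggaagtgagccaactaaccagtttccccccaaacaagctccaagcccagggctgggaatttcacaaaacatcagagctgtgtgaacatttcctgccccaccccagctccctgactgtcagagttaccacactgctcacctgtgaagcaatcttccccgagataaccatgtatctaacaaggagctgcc

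The S100a6 window held 3 CpG dinucleotides, and the S100a8 and S100a9 windows held 2 each. The S100a11 window held 11, against a median of 6 (quartiles 2 and 16) over all 32851 windows of this length. Both strands were searched for 5 motifs, some of whose matches can overlap each other. TGANTCA occurred at 2 places in the S100a11 window, 136 and 38 bases before the start, and in 1 of 2 windows of S100a16, and 6.75% of all windows hold it. TATAAA occurred in the windows of S100a8 and S100a4, 30 and 31 bases before the start, and in 1 of 4 windows of S100a3, and 12.4% of all windows hold it. GGGCGG (the GC box) occurred at 3 places in the S100a11 window and at 1 in the S100a9 window. It was also in 1 of 2 windows of S100a16 and 1 of 4 windows of S100a3, and 32.7% of all windows hold it. CCAAT occurred in the S100a6 window and in 1 of 4 windows of S100a3 (33.8% of all windows). CANNTG (the E-box) occurred in all 3 windows shown and in 9 of the 12 member windows (66.2% of all windows). A match describes the letters of a window and is not a measured binding site.

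Levels of different genes are compared as CPM per kilobase of the annotated principal transcript, the shortest where several qualified. Counts may also come from exons outside it. All annotated exons together span 1367 bases for S100a6 and 1727 for S100a14, against 464 and 483 in the transcript used. Comparisons between genes per kb depend on this choice. The order was S100a11, S100a14, S100a10, S100a16 and S100a6 in control epidermis, with S100a4, S100a1, S100a3, S100a8 and S100a9 far below. S100a11 averaged 700 ± 129 CPM per kb in Eed cKO and 506 ± 193 in control (SD, n = 3 each). S100a14 averaged 324 ± 94.1 CPM per kb in Eed cKO and 317 ± 13.3 in control, and S100a10 averaged 323 ± 128 in Eed cKO and 249 ± 11.2 in control. S100a6 averaged 248 ± 104 CPM per kb in Eed cKO and 104 ± 13.4 in control, and S100a16 averaged 119 ± 22.7 in Eed cKO and 108 ± 11.02 in control. In Eed cKO, S100a6 stood before S100a16 in the order. Among the 8 members with enough counts to test, neighbours whose means differed by less than the larger of their SDs were S100a14, S100a10 and S100a6, and S100a4, S100a1 and S100a3, in Eed cKO, and S100a11 with S100a14 and S100a16 with S100a6 in control. The lower members were S100a4 (9.28 ± 8.80 CPM per kb in Eed cKO and 13.9 ± 5.86 in control), S100a1 (4.04 ± 1.99 in Eed cKO and 2.53 ± 1.89 in control) and S100a3 (2.35 ± 1.73 in Eed cKO and 0.360 ± 0.386 in control).

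**Figure D1:**
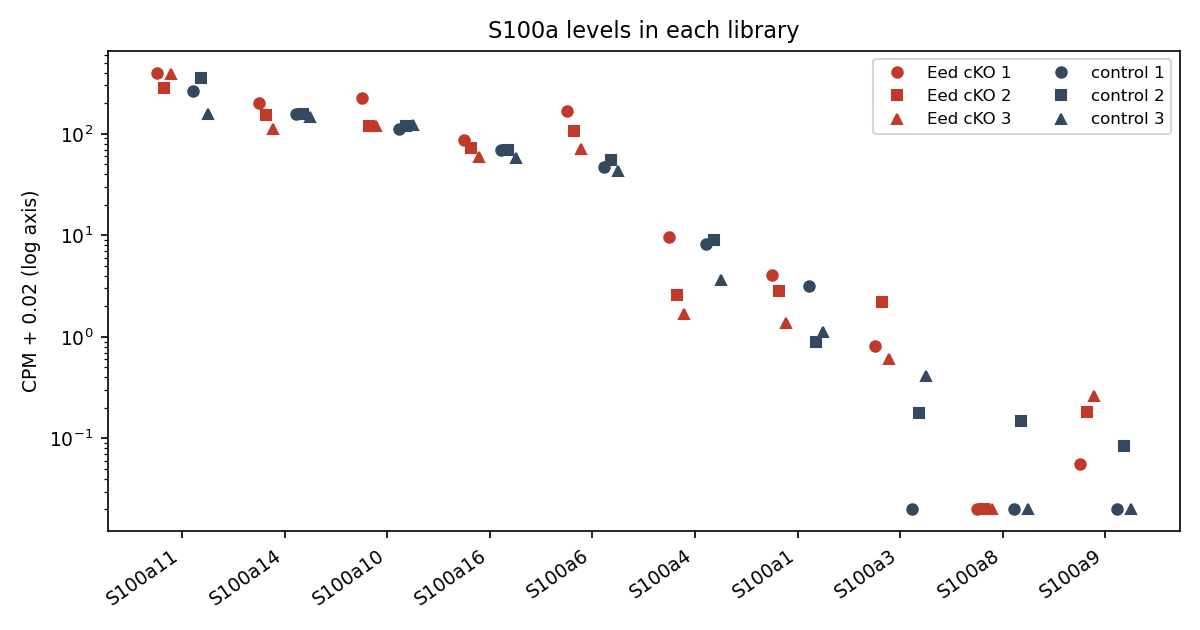
Level of each S100a member in CPM plus 0.02 (log axis) in the 3 Eed cKO libraries (red, left) and the 3 control libraries (dark, right), 1 point per library and no error bars. The S100a6 points of Eed cKO lie between 71.6 and 167 CPM, all above those of control, while most other members overlap.

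Of the 10 members 8 were tested, and 2 (S100a8 and S100a9) had too few counts. Among the 8, 1 rose (S100a6), 0 fell and 7 did not pass, against 3.39% higher, 0.816% lower and 4.21% in either direction over all tested genes. The groups did not overlap in either direction for 2 of the 8 (S100a6 and S100a3), against 20.3% of all tested genes. A single call among 8 members is no result about the family as a whole. At an unadjusted p under 0.05, 2 of the 8 passed (S100a6 and S100a3), against 14.9% of all tested genes, and DESeq2 and limma-voom also called 1 member higher and 0 lower. The log2 fold change was above 0 in 7 of the 8, against 48.7% of all tested genes, with a median of 0.42 against -0.01.

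S100a6 encodes calcyclin, which binds the ubiquitin ligase adaptor calcyclin-binding protein and several annexins. It was at 167, 106 and 71.6 CPM in Eed cKO libraries 1, 2 and 3, against 47.4, 54.9 and 42.6 CPM in control libraries 1, 2 and 3. Every Eed cKO library was above every control library, and Eed cKO 1 stood highest. The means were 115 ± 48.4 CPM in Eed cKO and 48.3 ± 6.21 CPM in control (SD, n = 3 each), a 2.38-fold rise (95% interval 1.63 to 3.50). On the log2 scale the rise was 1.25 ± 0.26 (SE), with an edgeR adjusted p of 0.0120. Without control 3 it was 1.17 and no longer passed (edgeR adjusted p 0.0663), and without Eed cKO 1 it was 0.88 and passed (edgeR adjusted p 0.0388). Without the counts of Rn45s it was 1.26 (edgeR adjusted p 0.0113).

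**Figure D2:**
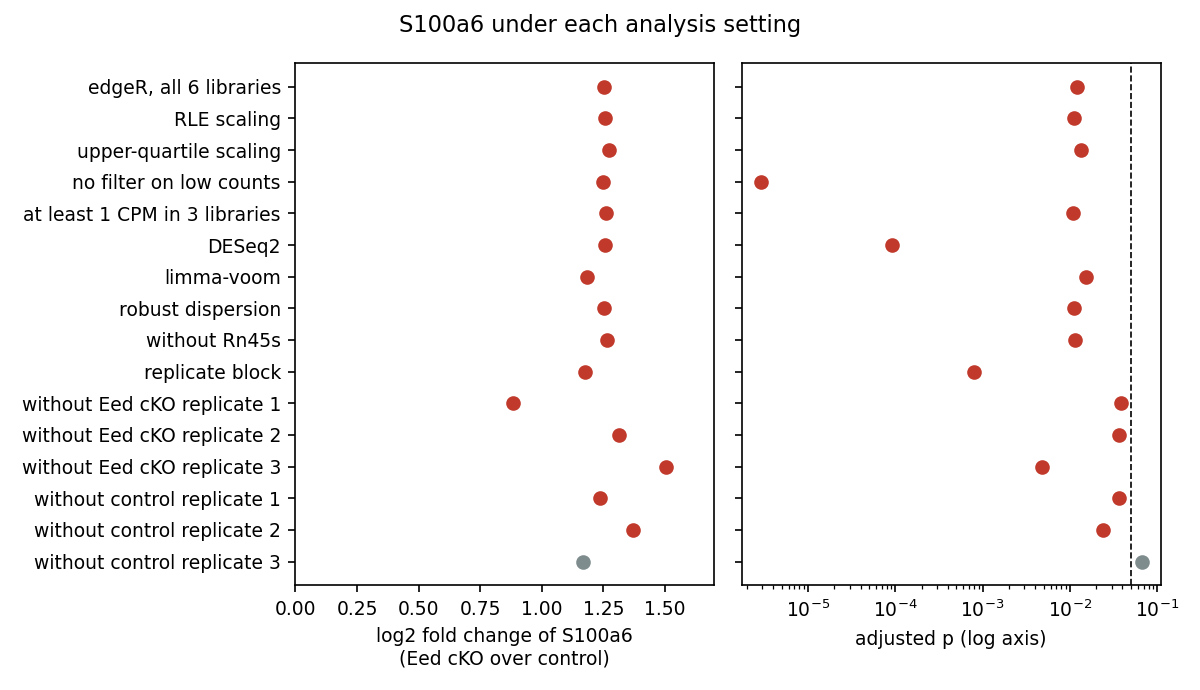
Log2 fold change of S100a6, Eed cKO over control (left), and its adjusted p on a log axis (right) for the 6-library fit and each alternative, 1 point per setting. The dashed line is an adjusted p of 0.05, red points pass it, and the grey point, without control 3, does not (0.0663).

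The place of S100a6 within the family was compared as well. S100a6 was chosen here because it rose in these same libraries, so its share and ratios follow in part from that choice and are no separate result. Its share of the summed CPM per kb of the 10 members was 16.4%, 15.5% and 10.3% in Eed cKO libraries 1, 2 and 3 and 7.81%, 7.74% and 8.62% in control libraries 1, 2 and 3. The shares did not overlap (two-sided exact permutation p 0.1, the smallest that 3 against 3 libraries can give). The ratio of S100a6 to S100a14, per kb, was 0.859, 0.717 and 0.666 in Eed cKO and 0.317, 0.361 and 0.304 in control. The ratio to S100a16 was 2.53, 1.94 and 1.58 in Eed cKO and 0.906, 1.03 and 0.966 in control, and the ratio to S100a10 was 0.768, 0.921 and 0.620 in Eed cKO and 0.433, 0.468 and 0.356 in control. None of these 3 ratios overlapped between the groups (two-sided exact permutation p 0.1 each, 0.2 after Benjamini-Hochberg adjustment over the 6 ratios computed). The ratio to S100a11 did overlap, at 0.460, 0.416 and 0.202 in Eed cKO and 0.199, 0.170 and 0.297 in control (exact permutation p 0.2, adjusted 0.3).

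**Figure D3:**
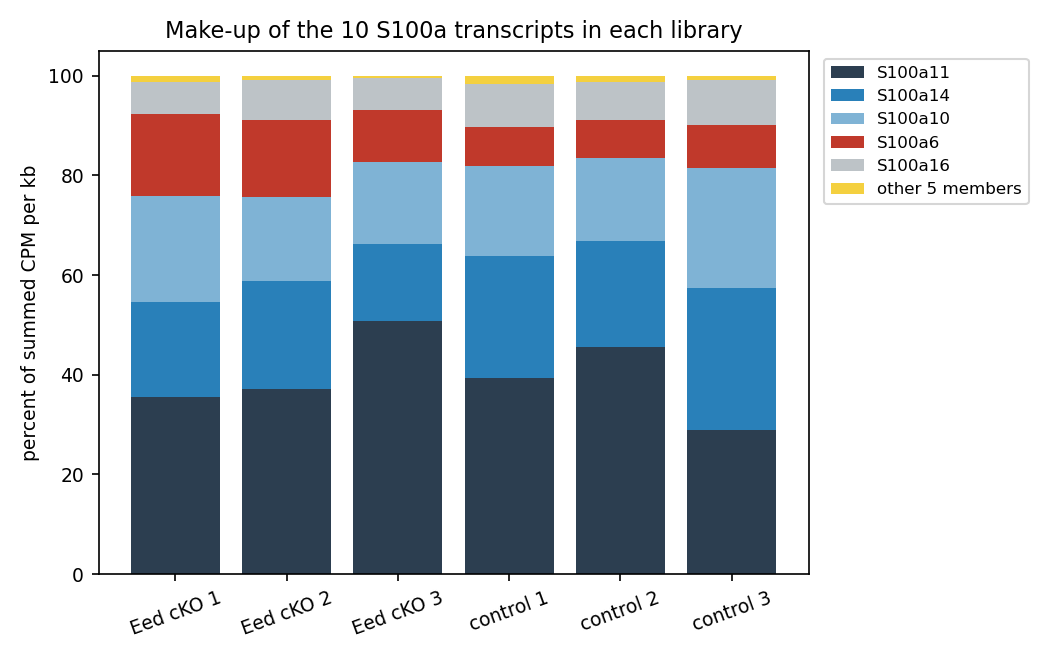
Share of each member in the summed CPM per kb of the 10 S100a genes, in percent, in the 3 Eed cKO libraries (left bars) and the 3 control libraries (right bars). S100a6 (red) takes 10.3% to 16.4% in Eed cKO and 7.74% to 8.62% in control, and S100a11 is the largest share in each library.

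The other abundant members did not pass. S100a10, the partner of annexin A2 in a membrane-bound complex, was at 224, 119 and 119 CPM in Eed cKO libraries 1, 2 and 3 and at 113, 121 and 123 CPM in control libraries 1, 2 and 3. Eed cKO 1 alone stood above control, and the other Eed cKO libraries lay within its range. The log2 fold change was 0.38 ± 0.23 (SE; 95% interval -0.11 to 0.86; edgeR adjusted p 0.501) and 0.0007 without Eed cKO 1.

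S100a11, known to bind annexin A1, was at 401, 282 and 390 CPM in Eed cKO and at 262, 355 and 158 CPM in control. The groups overlapped, and control 3 was the lowest. The log2 fold change was 0.47 ± 0.25 (SE; 95% interval -0.06 to 1.00; edgeR adjusted p 0.414), 0.21 without control 3 and 0.78 without control 2.

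S100a14 and S100a16 encode S100 proteins of epithelia whose targets are less well known. S100a14 was at 203, 154 and 112 CPM in Eed cKO and at 156, 158 and 146 CPM in control. The Eed cKO values lay on both sides of the control values, and the log2 fold change was 0.03 ± 0.20 (SE; 95% interval -0.40 to 0.46; edgeR adjusted p 0.976), with a sign that turned in 4 of 15 alternatives. S100a16 was at 86.8, 71.8 and 59.3 CPM in Eed cKO and at 68.5, 70.0 and 57.7 CPM in control. Its groups overlapped too, with a log2 fold change of 0.15 ± 0.19 (SE; 95% interval -0.25 to 0.56; edgeR adjusted p 0.810). These intervals leave out a doubling or a halving of S100a14 and S100a16.

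Eed cKO 1 was the highest of the 6 libraries for 7 of the 8 tested members, all but S100a3, and this library was the highest for 17.7% of all tested genes. The principal transcripts of the 8 tested members are 464 to 677 bases long. Among the 423 tested genes whose transcript, chosen in the same way, had such a length, the members included, Eed cKO 1 was the highest library for 29.1%. Among those of them at 50 CPM or more on average, it was the highest for 45.8% of 48 genes, against 10.3% of 4044 genes of any length at that level. The log2 fold change of S100a6 was 1.25 with all 6 libraries and 0.88 without Eed cKO 1. The part of this library and of transcript length in the S100a values was not tested. Over the 423 genes the median log2 fold change was -0.04, and 6 (1.42%) were higher in Eed cKO.

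Members best known from other cell types or from hair were low. S100a4 encodes a protein of fibroblasts and leukocytes that binds non-muscle myosin. It was at 9.65, 2.57 and 1.65 CPM in Eed cKO libraries 1, 2 and 3 and at 8.12, 9.04 and 3.59 CPM in control libraries 1, 2 and 3. Eed cKO 2 and Eed cKO 3 lay below all control libraries and Eed cKO 1 above them, and the log2 fold change was -0.58 ± 0.59 (SE; 95% interval -1.83 to 0.68; edgeR adjusted p 0.751). Without Eed cKO 1 it was -1.71 (edgeR adjusted p 0.107). S100a13, a gene of the same cluster outside the 10, was at 6.74, 2.77 and 1.31 CPM in Eed cKO and 5.05, 7.64 and 3.20 CPM in control (edgeR adjusted p 0.756).

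Macrophage and monocyte markers were also lower in Eed cKO 2 and Eed cKO 3 than in Eed cKO 1. Their 16 genes, all tested, summed to 257, 78.4 and 116 CPM in Eed cKO libraries 1, 2 and 3 and to 388, 166 and 363 CPM in control libraries 1, 2 and 3, and none was at 0 in all libraries. Of the 16, 0 rose, 1 fell (the chemokine receptor gene Cx3cr1) and 15 did not pass, against 3.39% higher and 0.816% lower over all tested genes. The median log2 fold change of the 16 was -1.02. A log2 fold change above 0 was seen in 0 of the 16, against 48.7% of all tested genes. DESeq2 called 3 lower and limma-voom 1. At an unadjusted edgeR p under 0.05, 7 were lower, against 14.9% of all tested genes in either direction. The Cx3cr1 call was lost in 5 of 15 alternatives, each with a library left out (adjusted p up to 0.0988). Csf1r, the macrophage growth factor receptor, was at 60.4, 10.1 and 16.7 CPM in Eed cKO and 84.9, 22.1 and 60.1 CPM in control (edgeR adjusted p 0.479), and Mrc1, the mannose receptor, at 27.2, 13.4 and 25.2 CPM in Eed cKO and 64.6, 21.5 and 93.2 CPM in control (edgeR adjusted p 0.0683). Csf1r passed without Eed cKO 1 (log2 fold change -2.06 against -0.93, edgeR adjusted p 0.0185) and Mrc1 without control 2 (-1.84 against -1.45, edgeR adjusted p 0.00342). With no filter on low counts both passed (edgeR adjusted p 0.0329 for Csf1r and 1.37e-05 for Mrc1). Control 2 had the least of these markers among controls but the most S100a4. Eed cKO 1 also stood well above Eed cKO 2 and Eed cKO 3 in other leukocyte marker sums. In Eed cKO libraries 1, 2 and 3, Langerhans cell markers summed to 336, 57.0 and 99.2 CPM and neutrophil markers to 4.77, 1.81 and 0.775 CPM. Fibroblast markers summed to 1708, 1630 and 1554 CPM there. The part of any of these cells in the S100a4 values was not tested. In bulk RNA, fewer cells of a type and less RNA per cell cannot be told apart. Exons of S100a4 share 302 bases, and those of S100a3 share 144 bases, with an annotated read-through gene on the same strand (Gm42674), so their counts are less certain.

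**Figure D4:**
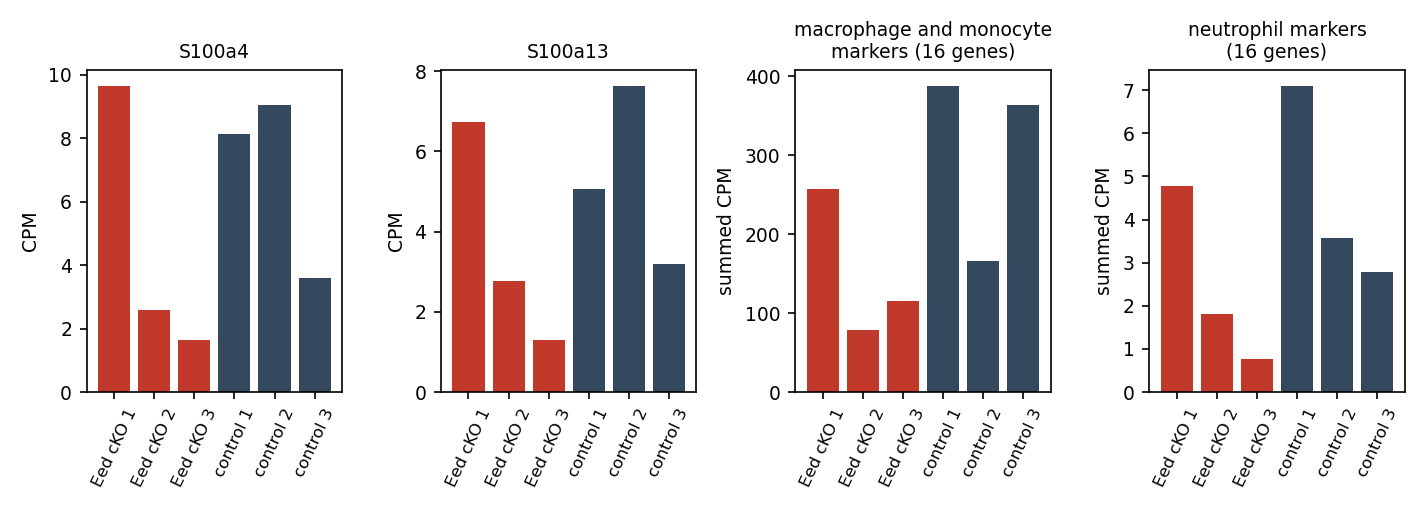
CPM of S100a4 and S100a13 and summed CPM of 16 macrophage and monocyte markers and of 16 neutrophil markers, 1 bar per library, with the 3 Eed cKO libraries (red) left of the 3 control libraries (dark). S100a4 and S100a13 are low in Eed cKO 2 and Eed cKO 3 and high in Eed cKO 1, and the neutrophil sum stays at or under 7.11 CPM.

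S100a1, best known as a calcium sensor of heart and skeletal muscle, was at 4.04, 2.81 and 1.36 CPM in Eed cKO and at 3.18, 0.863 and 1.09 CPM in control. The groups overlapped (log2 fold change 0.68 ± 0.68, SE; edgeR adjusted p 0.743), and the value was 1.48 without control 1 and 0.29 without Eed cKO 1, not passing in either. S100a3, known from the cuticle of hair, was at 0.802, 2.21 and 0.581 CPM in Eed cKO and at 0, 0.160 and 0.391 CPM in control. Every Eed cKO library was above every control library, on 89 counts in Eed cKO and 15 in control, and the log2 fold change was 2.69 ± 1.14 (SE; 95% interval 0.23 to 5.14) without passing (edgeR adjusted p 0.279). It was 1.90 without Eed cKO 2 and 3.78 without control 3. The 16 hair shaft and inner root sheath markers summed to 361, 289 and 350 CPM in Eed cKO and to 352, 306 and 361 CPM in control. Gata3 made up most of these sums, at 281.5, 224.2 and 293.8 CPM in Eed cKO and 309.6, 256 and 269.9 CPM in control. Among the hair keratin genes with too few counts to test, Krt81 was at 0 in all libraries. Krt85 had 109 counts in Eed cKO (65, 39 and 5) and 1 in control, and Krt35 had 22 in Eed cKO and 4 in control. Krt31 had 5 counts in Eed cKO and 9 in control, and Krt82 had 1 in Eed cKO and 8 in control. Of the 11 tested, 1 rose (Hoxc13) and 1 fell (Krt71), against 3.39% and 0.816% of all tested genes. The median log2 fold change of the 11 was -0.43, and 3 of 11 were above 0. DESeq2 called 1 higher and 3 lower, limma-voom 1 higher and 0 lower, and at an unadjusted edgeR p under 0.05 it was 1 higher and 4 lower. The Krt71 call was lost in 7 of 15 alternatives (adjusted p up to 0.284). The part of hair cells in the S100a3 values was not tested.

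The calprotectin genes were nearly silent. S100a8 had 0 counts in each Eed cKO library and 0, 4 and 0 counts in control libraries 1, 2 and 3, and 0 counts over the Eed cKO group allow up to 0.0411 CPM. S100a9 had 1, 4 and 5 counts in Eed cKO libraries 1, 2 and 3 and 0, 2 and 0 counts in control. All Eed cKO libraries held S100a9, but its highest value was 0.242 CPM (Eed cKO 3). The ratio of pooled counts, Eed cKO over control, was 5.73 (95% counting interval 1.22 to 53.8). Neither gene was tested for a difference. The interval and the limit cover counting error alone, because amplification copies molecules. The 16 neutrophil markers summed to 4.77, 1.81 and 0.775 CPM in Eed cKO and to 7.11, 3.58 and 2.77 CPM in control, with Mpo and Ly6g at 0 in all libraries. Of the 2 tested, 0 rose and 0 fell with edgeR, DESeq2 or limma-voom. Over all tested genes 3.39% rose and 0.816% fell with edgeR. Mmp9 was at 1.42, 1.49 and 0.387 CPM in Eed cKO and 0.0374, 0.384 and 0.0781 CPM in control (log2 fold change 2.66, edgeR unadjusted p 0.0269, adjusted p 0.247). Csf3r was at 2.95, 0.120 and 0.0968 CPM in Eed cKO and 4.38, 0.927 and 1.56 CPM in control (-1.10, edgeR adjusted p 0.736).

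Of 7 other S100 genes in the files 3 were tested. Of the 3, 0 rose and 0 fell with edgeR, DESeq2 or limma-voom, or at an unadjusted edgeR p under 0.05. Over all tested genes 3.39% rose and 0.816% fell with edgeR, and 14.9% passed at the unadjusted p in either direction. The glial and melanocyte gene S100b averaged 0.850 ± 0.767 CPM in Eed cKO and 0.767 ± 0.475 CPM in control, and S100g, encoding calbindin-D9k, a calcium carrier of the gut, 0.676 ± 0.367 CPM in Eed cKO and 0.364 ± 0.203 CPM in control (SD, n = 3 each). S100a2, S100a5, S100a7a and S100z had 3 counts or fewer in either group.

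The fused-type S100 genes encode large filaggrin-like proteins with an S100 domain at one end, several of them made in the upper epidermis. Of 5 tested 1 rose, 0 fell and 4 did not pass, with a median log2 fold change of 0.74, against -0.01 over all tested genes. Over all tested genes 3.39% rose and 0.816% fell. Hrnr, encoding hornerin, was at 24.1, 41.2 and 48.5 CPM in Eed cKO libraries 1, 2 and 3 and at 8.90, 15.2 and 13.7 CPM in control libraries 1, 2 and 3 (log2 fold change 1.59, edgeR adjusted p 0.00529). The groups did not overlap, and Eed cKO 1 was the lowest of the Eed cKO libraries. Of the 23 tested suprabasal and granular markers, Hrnr among them, 6 rose and 0 fell, against the same 3.39% and 0.816% of all tested genes. Among 12 basal markers, 0 rose or fell with edgeR, DESeq2 or limma-voom (0 up and 2 down at an unadjusted edgeR p under 0.05). Rptn, encoding repetin, was at 2.88, 4.09 and 3.87 CPM in Eed cKO and at 0.112, 1.37 and 0.390 CPM in control (edgeR adjusted p 0.106). It was called in 4 of 15 alternatives, DESeq2 among them. Flg2, encoding filaggrin-2, averaged 10.3 ± 4.37 CPM in Eed cKO and 6.39 ± 0.493 CPM in control (edgeR adjusted p 0.396). Tchh, also on the hair shaft and inner root sheath list, averaged 30.3 ± 5.18 CPM in Eed cKO and 29.8 ± 16.3 CPM in control (edgeR adjusted p 0.987). Crnn averaged 0.887 ± 0.954 CPM in Eed cKO and 0.528 ± 0.512 CPM in control (edgeR adjusted p 0.871).

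Between the first base of S100a1 and the last of S100a10, 41 of 69 genes in the files were tested, the 8 tested members among them. Of the 41, 3 (7.32%) were higher and 0 lower in Eed cKO, against 3.39% and 0.816% of all tested genes. The 3 were S100a6, Hrnr and Sprr1a, a cornified envelope precursor (55.0 ± 27.7 CPM in Eed cKO and 14.7 ± 4.44 CPM in control, edgeR adjusted p 0.00379).

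Among 16 annexins and other genes whose products S100 proteins bind, 2 rose, 0 fell and 14 did not pass, with a median log2 fold change of 0.19. Over all tested genes 3.39% rose and 0.816% fell. Capn2, encoding the large subunit of the calcium-activated protease m-calpain, was at 190, 178 and 147 CPM in Eed cKO and 61.5, 87.5 and 78.4 CPM in control (log2 fold change 1.18, edgeR adjusted p 0.00177). Anxa3, encoding annexin A3, was at 21.5, 20.1 and 22.7 CPM in Eed cKO and 8.04, 12.9 and 9.06 CPM in control (log2 fold change 1.09, edgeR adjusted p 0.0280). The groups did not overlap for either gene, but the Anxa3 call was lost in 5 of 15 alternatives (adjusted p up to 0.127). An annotated antisense gene shares 1717 exonic bases with Capn2, and without strand their reads cannot be told apart. Anxa8 (503 ± 109 CPM in Eed cKO and 300 ± 77.3 CPM in control, edgeR adjusted p 0.0711) and the plasminogen activator gene Plat (5.0 ± 0.510 CPM in Eed cKO and 1.43 ± 0.711 CPM in control, edgeR adjusted p 0.0777) did not pass with edgeR, and alternatives called Anxa8 in 4 of 15 and Plat in 3 of 15, DESeq2 among them.

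The annexins that pair with members did not pass. Anxa2, the partner of S100a10, averaged 927 ± 191 CPM in Eed cKO and 906 ± 301 CPM in control (edgeR adjusted p 0.977), and Anxa1, the partner of S100a11, 463 ± 38.8 CPM in Eed cKO and 390 ± 106 CPM in control (edgeR adjusted p 0.632; SD, n = 3 each). The ratio of S100a10 to Anxa2, per kb, averaged 0.498 ± 0.123 in Eed cKO and 0.431 ± 0.152 in control (exact permutation p 0.5, adjusted 0.6), and that of S100a11 to Anxa1 2.44 ± 0.355 in Eed cKO and 2.13 ± 0.738 in control (exact permutation p 0.7, adjusted 0.7).

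**Figure D5:**
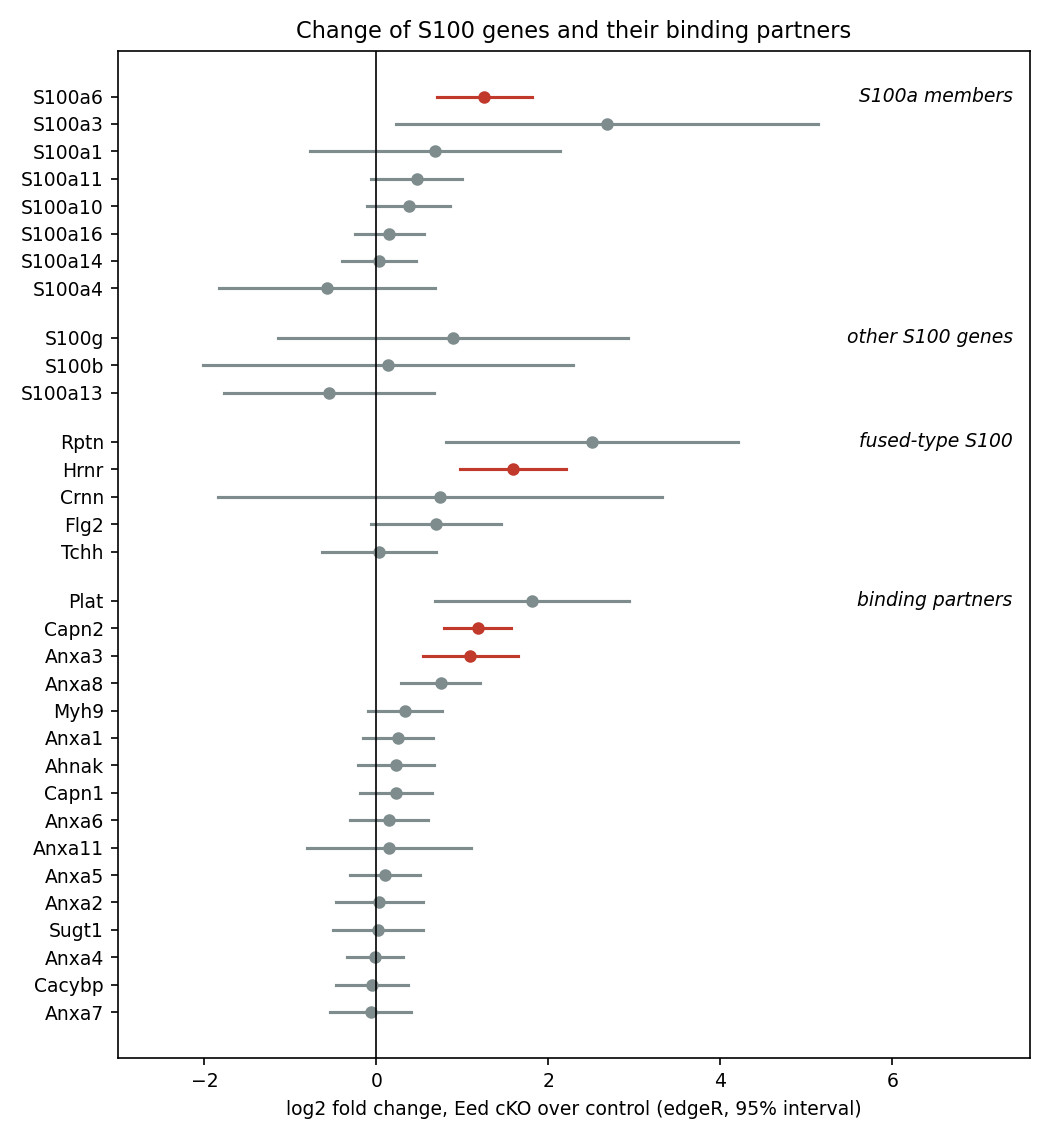
Log2 fold change, Eed cKO over control, with its 95% interval from edgeR for the tested S100a members, other S100 genes, fused-type S100 genes and binding partners, 1 line per gene. Genes past an adjusted p of 0.05 (S100a6, Hrnr, Capn2 and Anxa3) are red, and the other intervals are grey.

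Of 7 receptor genes for S100 proteins, all tested, 0 rose and 0 fell with edgeR, against 3.39% and 0.816% of all tested genes. With DESeq2 it was 1 up and 0 down, and with limma-voom 0. At an unadjusted edgeR p under 0.05, 1 was up and 1 down, against 14.9% of all tested genes in either direction. The median log2 fold change was -0.42, against -0.01 over all tested genes. Ager, encoding the receptor RAGE, averaged 6.30 ± 1.49 CPM in Eed cKO and 8.42 ± 2.39 CPM in control (edgeR adjusted p 0.686), and Tlr4 averaged 1.44 ± 0.277 CPM in Eed cKO and 2.39 ± 1.19 CPM in control (edgeR adjusted p 0.699). Alcam, a cell adhesion molecule of the same superfamily as RAGE, averaged 190 ± 22.8 CPM in Eed cKO and 125 ± 19.9 CPM in control (edgeR adjusted p 0.0733), with its groups apart and a call in 3 of 15 alternatives, DESeq2 among them.

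Genes with a profile most like that of S100a6 over the 6 libraries were sought among 10596 genes at 5 CPM or more, by the root mean square difference of log2 CPM after centring each gene on its mean. The nearest was Igfbp2, an insulin-like growth factor binding protein gene (difference 0.167), which was at 361, 266 and 215 CPM in Eed cKO and 131, 136 and 126.5 CPM in control. Hbegf, encoding an epidermal growth factor receptor ligand (0.191), was at 26.7, 19.7 and 15.4 CPM in Eed cKO and 8.08, 7.77 and 8.08 CPM in control. Ctsf, a cathepsin gene (0.200), Camkk1, a calmodulin-dependent kinase kinase gene (0.204), and Prrg3 (0.206) followed. The 5 were chosen for this profile, so their higher level in Eed cKO and their order over the libraries follow from the choice and are no separate result.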

How the data were processed

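The 6 libraries (3 Eed cKO, 3 control) were made from total RNA amplified with the Ovation RNA-seq System V2, per the labels' protocols, and read from one end. Each deposited file lists whole-number counts for every gene symbol, which the authors left unnormalized. The submitters' processing notes list the genome mm10, the aligner TopHat2 (2.0.13), the read counter HTSeq (0.6.1), and also Cufflinks (2.2.1) and DESeq2 (1.6.3), without saying how each was used. The annotation and strand setting used for counting are not stated there, so overlapping genes have uncertain counts.

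Differences were fitted with edgeR 4.0.16 in R 4.3.3 (filterByExpr, TMM, quasi-likelihood F-test on genotype alone) and adjusted by Benjamini-Hochberg over all 14700 genes. SEs are the log2 fold change divided by the square root of F. Fold changes are Eed cKO over control, and CPM use TMM library sizes. A count of 0 was given a limit of 3 counts over the group. Whether replicate numbers pair animals is not stated.

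The alternatives changed the scaling (RLE, upper quartile), the filter (none, or 1 CPM in 3 libraries), the test (DESeq2 1.42.0, limma-voom with limma 3.58.1), the dispersion (robust) or the libraries used (each left out in turn), removed Rn45s, or added a replicate block. The fitting code was tested on simulated data. Gene positions and transcript lengths come from GENCODE M21 (GRCm38, the same assembly as mm10), which held 23797 of 24453 symbols. Promoters are from RefSeq on GRCm38.p6.

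The 10 members and the gene lists were chosen with earlier results of these data known, and the ratios between genes and the comparison by transcript length after values were seen. Genes that could be named were all members, tested genes of the S100-related and Polycomb lists, of other lists those past the adjusted p and otherwise the 2 most abundant, and the 5 nearest S100a6 in profile. Not every gene that could be named is named, and those left out stand in the counts. A profile of S100a8 and S100a9 could not be computed, since neither was tested. Marker genes listed at 0, untested hair keratin genes and alarm genes with a log2 fold change below 0 were named after their values were seen.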

Additional observations from a re-analysis of the deposited data

How the results depend on the processing

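The number of genes higher in Eed cKO was 499 and became 814 with DESeq2. Genes lower numbered 120, and 257 with no filter on low counts (737 higher), 273 with DESeq2 and 269 with the replicate block (675 higher). Leaving out each library in turn gave 302 to 456 genes higher and 35 to 118 lower. The S100a members higher numbered 0 to 1 in those fits, with 0 without control 3, and 1 under every other alternative run, and members lower numbered 0 throughout. S100a6 had a log2 fold change of 0.88 to 1.502 over all 15 alternatives and passed in 14. The sign of S100a14 turned with limma-voom (-0.005244) and the replicate block (-0.0123), and its values ranged from -0.20 to 0.22 when libraries were left out. The sign of S100b turned with limma-voom (-0.60) and the block (-0.28), with -0.71 to 0.79 when libraries were left out, and that of Anxa2 turned only there (-0.22 to 0.23). The cause of these changes was not tested. With the replicate block Csf1r and Mrc1 were called lower (adjusted p 0.00363 and 0.000959). Same-numbered libraries had correlations of 0.23, 0.108 and -0.00138 in their deviations from the group means. Differently numbered libraries had -0.185 to 0.0994, so 0.23 and 0.108 lay above every one of these. Such values do not settle whether the numbers are pairs. The main fit used no pairs because the labels state none. Under RLE and upper-quartile scaling the median log2 fold change of all genes was -0.0029 and 0.0032. Counts of 10 or fewer per group limit what can be said of S100a8 and S100a9.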

Other observations

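S100a8 and S100a9 are usually induced together with other alarm genes of keratinocytes, and some of those were higher in Eed cKO. Of 15 tested alarm and antimicrobial genes, 4 rose and 0 fell with edgeR, while DESeq2 called 6 higher and limma-voom 3. Over all tested genes 3.39% rose and 0.816% fell with edgeR. At an unadjusted edgeR p under 0.05, 6 of the 15 were higher and 1 lower (Stfa1). The log2 fold change was above 0 in 10 of the 15. It was below 0 for Il1a (-1.12), Cxcl2 (-0.90), Cxcl1 (-0.67), Stfa1 (-0.65) and Il1b (-0.07). Krt6a, a keratin of activated keratinocytes, was at 96.3, 120 and 116 CPM in Eed cKO libraries 1, 2 and 3 and at 6.47, 10.3 and 2.85 CPM in control libraries 1, 2 and 3 (log2 fold change 4.08, edgeR adjusted p 1.22e-05). Its close paralogue Krt6b averaged 18.6 ± 5.05 CPM in Eed cKO and 2.23 ± 1.07 CPM in control, and reads of the pair may be shared. Krt16 averaged 118 ± 21.3 CPM in Eed cKO and 30.3 ± 5.78 CPM in control, and Defb1, encoding a beta-defensin, 16.7 ± 11.2 CPM in Eed cKO and 4.83 ± 2.07 CPM in control (SD, n = 3 each; edgeR adjusted p 0.0415). The Defb1 call was lost in 5 of 15 alternatives, limma-voom among them (adjusted p 0.0864). Without Eed cKO 3 its log2 fold change was 1.08 against 1.78 (edgeR adjusted p 0.324). Of 18 transcription factors and other regulators listed for S100a8 and S100a9, 1 rose and 1 fell, against the same shares of all tested genes. Grhl3, an epidermal barrier factor, averaged 102 ± 14.2 CPM in Eed cKO and 45.7 ± 17.1 CPM in control (edgeR adjusted p 0.0187), and Pou2f3, a POU factor of epidermis, averaged 364 ± 75.4 CPM in Eed cKO and 583 ± 51.6 CPM in control (edgeR adjusted p 0.0453). The Grhl3 call was lost without Eed cKO 1 (edgeR adjusted p 0.0540) and without Eed cKO 3 (edgeR adjusted p 0.0674). The Pou2f3 call was lost in 6 of 15 alternatives, with upper-quartile scaling (edgeR adjusted p 0.0622) and without Eed cKO 2, Eed cKO 3 or any of the controls (0.0917 to 0.188).

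Other marker sums, given as ranges over libraries, were 57.0 to 336 CPM in Eed cKO and 93.6 to 428 CPM in control for Langerhans cells, and 1554 to 1708 CPM in Eed cKO and 1933 to 2622 CPM in control for fibroblasts. In the fibroblast sums, Postn alone was at 824.5 to 932.3 CPM in Eed cKO and 1351 to 1880 CPM in control. Endothelial and mural markers summed to 158 to 213 CPM in Eed cKO and 98.5 to 154 CPM in control. Cspg4 made up most of these sums, at 131.8 to 160.4 CPM in Eed cKO and 65.8 to 104.8 CPM in control. Merkel cell markers summed to 20.5 to 30.7 CPM in Eed cKO and 9.76 to 11.3 CPM in control. T cell markers summed to 33.5 to 55.7 CPM in Eed cKO and 29.5 to 34.8 CPM in control. Thy1 made up most of these T cell sums, at 32.7 to 53.3 CPM in Eed cKO and 28.4 to 28.9 CPM in control. Melanocyte and Schwann cell markers summed to 16.2 to 32.0 CPM in Eed cKO and 14.2 to 36.0 CPM in control. Among the other lists, edgeR called Krt10, Krt2, Tgm1 and Klk5 higher beside Hrnr and Sprr1a, 6 of 23 tested suprabasal and granular markers. Also higher were Sox2, Isl1 and Rab3b (3 of 7 tested Merkel cell markers) and Epcam (1 of 3 genes of the sort). Of 11 tested genes of the fibroblast list, Fbn1 was higher and Postn lower. Of 10 genes of the endothelial and mural list, Cspg4 was higher. Of the 9 melanocyte and Schwann cell, 7 Langerhans cell and 2 T cell markers tested, 0 were called. Over all tested genes 3.39% rose and 0.816% fell. A list's name does not say which cells made the RNA, and this was not tested. Over 15 alternatives the calls of Krt10, Fbn1, Postn and Isl1 held in all, that of Sox2 in all 14 that gave a value, those of Krt2 and Tgm1 were lost in 1 each, those of Klk5 and Epcam in 4 each, that of Cspg4 in 5 and that of Rab3b in 6.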
